A study of Mus with 2 samples.

Results

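Tumors remodel the tissue around them with secreted and membrane-bound proteases, and 10 genes of that system were followed here in 2 sections of mouse CT26 tumors. They were 6 matrix metalloproteinase genes (Mmp3, Mmp12, Mmp13, Mmp9, Mmp2 and Mmp14), the cysteine protease gene Ctsk, and 3 genes for tissue inhibitors of metalloproteinases (Timp1, Timp2 and Timp3). The genes were taken by symbol, and all 10 were present among the 32285 genes counted. They had been picked with their levels by section, by distance from the tissue outline and by correlation across spots already known, so those values are given as a description and carry no test.

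Metalloproteinases are zinc enzymes that are made as inactive precursors and cut collagens, elastin, gelatin, laminins and other matrix proteins once their propeptide is removed. TIMP proteins bind the active site of these enzymes, so the same tissue usually holds both the proteases and their inhibitors. In tumors the transcripts come from fibroblasts, macrophages, neutrophils, endothelial cells and the tumor cells themselves, and Ctsk is best known from osteoclasts, the bone-resorbing relatives of macrophages.

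CT26 is a colon carcinoma cell line from BALB/c mice, and the study placed it under the skin of BALB/c mice 6 to 8 weeks old to ask how recombinant IL-7 (rIL7) changes the tumor and its immune cells. The control mouse was injected with PBS, and the treated mouse received 10 µg of rIL7 into the peritoneal cavity on days 11 and 13 after transplantation. Both tumors were collected on day 15, frozen, cut at 10 µm and profiled with Visium, in which RNA binds to spots that carry barcodes and are laid out on a grid and each molecule is counted by a unique molecular identifier, or UMI. A spot often covers several cells, and these may differ in type. The model is a transplanted cell line growing at a site other than the colon, and each group is 1 section of 1 tumor.

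With 1 section per group there was no replicate check and no test. Values are UMIs per 1000000 UMIs of the section (CPM) with 95% intervals, exact Poisson for a level and exact binomial for a ratio, and these cover counting error only. As a picture of spread within a tumor, 4 quadrants were cut along the median row and the median column of its spots; quadrants of 1 section are not replicates. The kept spots numbered 2219 with 22951678 UMIs in the control tumor and 1950 with 25729233 UMIs in the rIL7 tumor, and the median spot held 9623 and 12921.5 UMIs. Counting was from the 3' end and is not divided by transcript length, so levels are compared for the same gene between places and not ranked between genes. In such sections fewer cells of a type and less RNA per cell cannot be told apart. Among marker lists, the CT26 tumor genes summed to 1293 CPM in the control tumor and 1043 CPM in the rIL7 tumor, T cell genes to 35.2 and 121.3 CPM, fibroblast genes to 2048 and 2317 CPM, and macrophage genes to 4075 and 4484 CPM. The control section also held keratinocyte and skeletal muscle genes at 59.6 and 52.2 CPM, against 37.7 and 10.7 CPM in the rIL7 tumor. Of the 970 rIL7 keratinocyte UMIs 966 were Krt10, while Krt5 had 196 UMIs in the control tumor and 0 in the rIL7 tumor, and Krt14 had 250 and 1.

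Between the sections, 9 of the 10 genes had a mean level of at least 5 CPM, and 6 of those 9 were at least 1.5-fold higher in the rIL7 tumor, where 3.26% of all 10721 genes at that level were. These 6 were Mmp12, Mmp13, Mmp9, Mmp3, Ctsk and Timp3. None was 1.5-fold lower (2.20% of all genes were). At 2-fold, 3 genes were higher, namely Mmp12, Mmp9 and Ctsk, against 1.46% of all genes. For the same 6 genes every rIL7 quadrant lay above every control quadrant, a pattern found in 10.0% of all genes, and for no member did every quadrant lie below (11.0%). The median log2 ratio over the 10 genes was 0.81, while the median over all 10721 genes was -0.00471. Single members ran from -0.21 (Mmp14) to 1.94 (Ctsk). Their lower and upper limits had medians of 0.73 and 0.88, which are not an interval for the median itself. The same values helped to choose the genes, so these counts describe the choice and support nothing further.

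**Figure D1:**
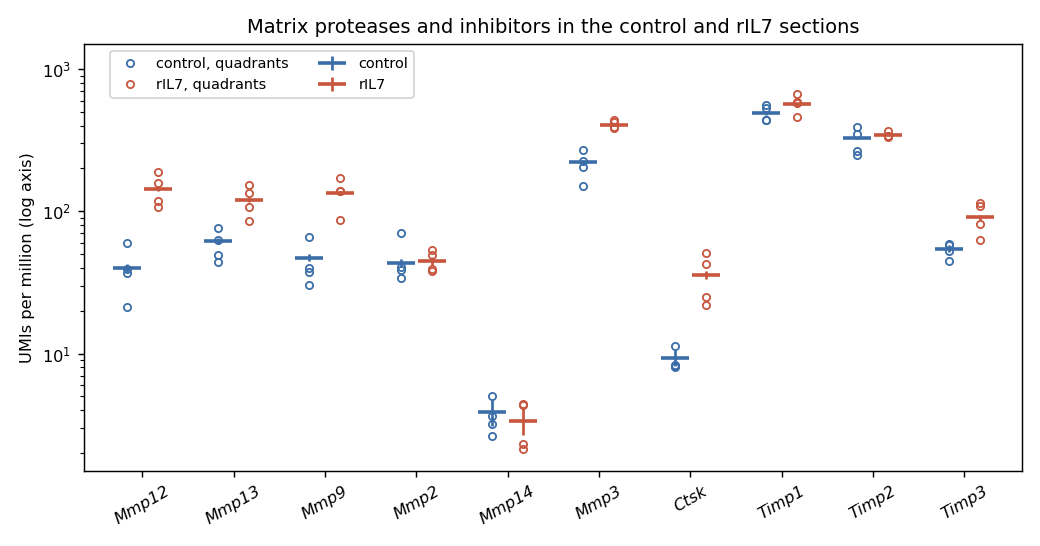
Level of each gene in UMIs per 1000000 (log axis) in the control section (blue) and the rIL7 section (red); horizontal marks are whole sections with 95% counting intervals, and open circles are the 4 quadrants of each section. The red circles of Mmp12, Mmp13, Mmp9, Mmp3, Ctsk and Timp3 all lie above the blue ones, whereas those of Mmp2, Mmp14, Timp1 and Timp2 overlap.

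Mmp3, or stromelysin 1, cuts proteoglycans, fibronectin and laminin and can activate other metalloproteinase precursors. It was counted with 5084 UMIs in the control tumor and 10471 UMIs in the rIL7 tumor, that is 221.5 CPM (215.5 to 227.7) and 407 CPM (399.2 to 414.8). The rIL7 section was thus 1.84-fold higher (1.78 to 1.90). Control quadrants ranged from 150.3 to 270.1 CPM and rIL7 quadrants from 383.4 to 436.3 CPM, so the rIL7 quadrants were both higher and closer to each other. Mmp3 made up 53.0% (52.0 to 54.0) of the UMIs of the 6 metalloproteinase genes in the control tumor and 47.8% (47.1 to 48.5) in the rIL7 tumor.

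Mmp12, the macrophage metalloelastase, is known for cutting elastin. Its level was 39.8 CPM (37.2 to 42.5) in the control tumor and 142.9 CPM (138.3 to 147.6) in the rIL7 tumor, a ratio of 3.59 (3.34 to 3.87). In the control quadrants it ranged from 21.2 to 59.8 CPM and in the rIL7 quadrants from 106.4 to 190.1 CPM. Its share of the metalloproteinase UMIs was 9.53% in the control tumor and 16.8% in the rIL7 tumor. A single spot held up to 9 Mmp12 UMIs in the control tumor and up to 39 in the rIL7 tumor.

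Mmp13, or collagenase 3, cuts fibrillar collagen. The control section held 61.8 CPM (58.6 to 65.1) and the rIL7 section 119.7 CPM (115.5 to 124), a ratio of 1.94 (1.82 to 2.06). Control quadrants lay between 43.9 and 76.9 CPM and rIL7 quadrants between 85.8 and 152.3 CPM. The nearest quadrants of the sections were thus only slightly apart.

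Mmp9, or gelatinase B, cuts denatured collagen and type IV collagen and is made by macrophages, neutrophils and osteoclasts. It stood at 47.3 CPM (44.5 to 50.2) in the control tumor and 133.6 CPM (129.2 to 138.2) in the rIL7 tumor, a ratio of 2.83 (2.64 to 3.03). Quadrants ranged from 30.3 to 66.5 CPM in the control tumor and from 86.6 to 171.6 CPM in the rIL7 tumor. As mapped below, the upper left quadrant was the highest of the control section and the lowest of the rIL7 section for this gene.

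Mmp2, or gelatinase A, is typically made by fibroblasts. Its section level was 43.4 CPM (40.7 to 46.2) in the control tumor and 44.8 CPM (42.3 to 47.5) in the rIL7 tumor, a ratio of 1.03 (0.948 to 1.13) whose interval includes 1. The 2 sections nonetheless placed this gene differently, as the values by distance below show. Mmp14, the membrane-type metalloproteinase that activates the Mmp2 precursor, had 89 UMIs in the control tumor and 86 UMIs in the rIL7 tumor (3.88 and 3.34 CPM) and was the member that did not reach 5 CPM. Its ratio of 0.862 (0.633 to 1.17) does not settle a direction at this depth.

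Ctsk encodes cathepsin K, a lysosomal and secreted collagenase. With 215 UMIs in the control tumor and 924 UMIs in the rIL7 tumor, its level was 9.37 CPM (8.16 to 10.7) and 35.9 CPM (33.6 to 38.3). The ratio of 3.83 (3.30 to 4.47) had the widest interval of the 6 genes that were higher. Control quadrants lay between 8.03 and 11.3 CPM and rIL7 quadrants between 21.9 and 51.1 CPM.

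Among the inhibitors, Timp1 binds most secreted metalloproteinases and is often induced in inflamed tissue. Timp1 was at 488.1 CPM (479.1 to 497.2) in the control tumor and 572.3 CPM (563.1 to 581.6) in the rIL7 tumor, a ratio of 1.17 (1.14 to 1.20). Quadrants overlapped, at 438.1 to 561.2 CPM and 462.1 to 664.4 CPM. Timp2, which besides inhibiting takes part in activating the Mmp2 precursor, differed least, at 327.3 CPM (319.9 to 334.7) and 344.8 CPM (337.7 to 352.1), a ratio of 1.05 (1.02 to 1.09). Its quadrants ranged from 249.2 to 389.9 CPM in the control tumor and from 332.7 to 368.9 CPM in the rIL7 tumor, so the control section alone spanned more than the difference between sections.

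Timp3 stays bound to the matrix and also inhibits ADAM and ADAMTS proteases. It was at 54.6 CPM (51.7 to 57.8) in the control tumor and 90.9 CPM (87.2 to 94.6) in the rIL7 tumor, a ratio of 1.66 (1.55 to 1.78). Quadrants ranged from 44.4 to 58.6 CPM and from 62.4 to 114.3 CPM. Timp3 was the one inhibitor of the 3 past 1.5-fold.

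Summed over members, the 6 metalloproteinase genes had 417.6 CPM in the control tumor and 851.3 CPM in the rIL7 tumor, and the 3 TIMP genes 870 and 1008 CPM. There were 0.48 metalloproteinase UMIs per TIMP UMI in the control (0.468 to 0.492) and 0.845 in the rIL7 tumor (0.829 to 0.860). By quadrant this ratio ran from 0.354 to 0.557 in the control tumor and from 0.801 to 0.892 in the rIL7 tumor, with no overlap. The summed genes were chosen with their section levels known, so this separation describes the choice and supports nothing further. A share over other sets of genes is not at hand. The ratio is one of transcript counts and says nothing of active enzyme.

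Distance from the tissue outline was counted in steps of the spot grid, and spots of the largest piece up to 2 steps from its outer outline were called edge and all others of that piece interior. The edge held 401 spots (18.2%) of the control and 330 spots (17.1%) of the rIL7 section. The median edge and interior spots held 10901 and 9482 UMIs in the control tumor and 11165.5 and 13162 UMIs in the rIL7 tumor, so depth ran in opposite directions. In the control section 1 of the 9 genes at 5 CPM or more was 1.5-fold higher at the edge (1.04% of all genes were) and 0 were lower (2.49%). The rIL7 section had 1 gene higher (7.57%) and 3 lower (6.54%). Over the 10 genes the log2 ratio of edge to interior had a median of 0.15 in the control tumor and -0.071 in the rIL7 tumor. For all genes the medians were -0.059 and -0.057. The members' lower and upper limits had medians of -0.078 and 0.32 in the control tumor and -0.25 and 0.17 in the rIL7 tumor.

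**Figure D2:**
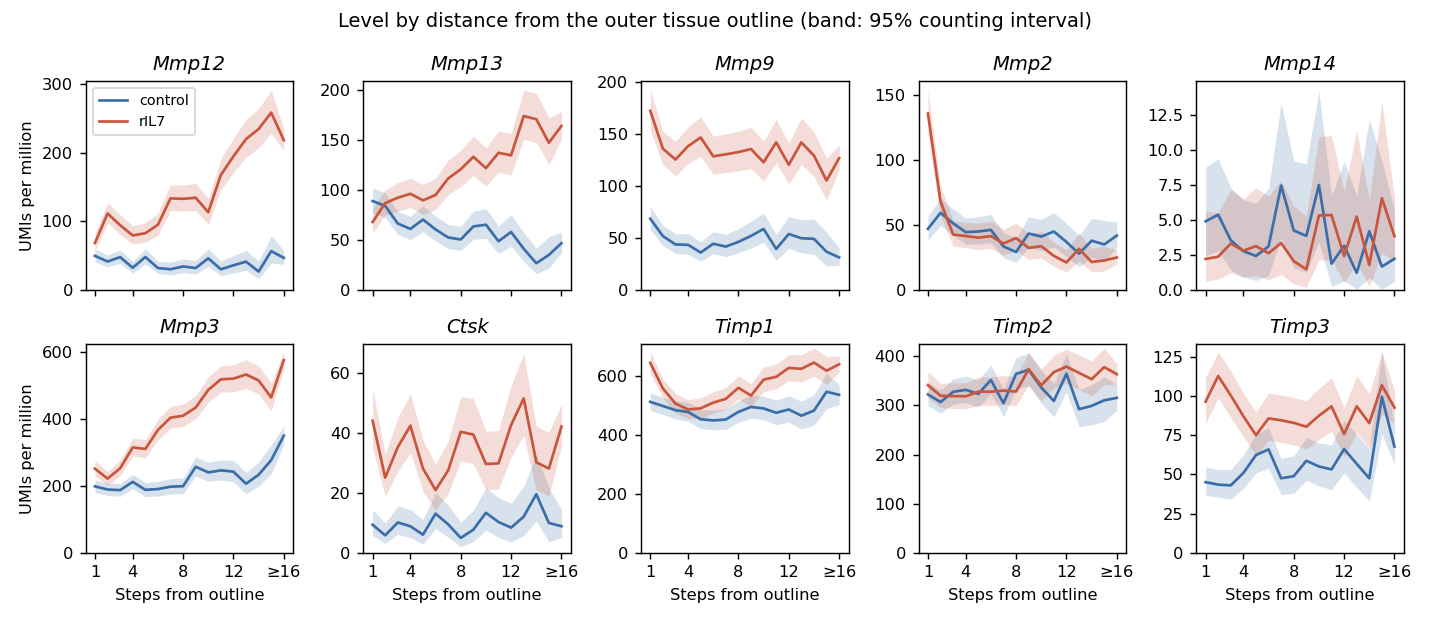
Level of each gene (UMIs per 1000000) by steps from the outer tissue outline, with spots 16 or more steps in shown together; lines are the control (blue) and rIL7 (red) sections and bands are 95% counting intervals. In the rIL7 section Mmp12, Mmp13 and Mmp3 were higher toward the center and Mmp2 was highest in the outermost step, while Timp2, averaged over bands of steps, stayed between 306.7 and 365.1 UMIs per 1000000 in both sections.

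Mmp2 had the highest edge ratio of the 10 genes in the rIL7 section, while Mmp13, Mmp14 and Mmp9 had higher ones in the control section. Mmp2 reached 53 CPM in edge spots and 41 CPM in interior spots of the control section, a ratio of 1.29 (1.11 to 1.5), and at 99.1 CPM and 32.6 CPM in the rIL7 tumor, a ratio of 3.04 (2.68 to 3.45). In the outermost step of the rIL7 section the level was 135.6 CPM, and 13 or more steps in it was 25 CPM. Set edge against edge, the rIL7 section was 1.87-fold higher (1.59 to 2.21), and set interior against interior it was lower, with a ratio of 0.796 (0.717 to 0.883). The near-equal section totals of this gene were therefore made of opposite differences in the 2 zones. In each of the 4 quadrants of both sections the edge was above the interior, and the rIL7 edge ranged from 49.8 CPM in the lower right quadrant to 163.3 CPM in the upper left. Fibroblast genes moved with this pattern, with an edge over interior ratio of 0.985 in the control tumor and 1.74 in the rIL7 tumor (all 11 detected in both), and so did macrophage genes (1.12 and 1.91), MHC class II genes (1.20 and 3.24) and T cell genes (1.15 and 3.62); their part in the Mmp2 values was not tested.

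Mmp13 showed the reverse. Its edge level was 86.3 CPM in the control against 55.9 CPM in the interior, a ratio of 1.55 (1.37 to 1.74). In the rIL7 section the edge held 78 CPM and the interior 127.6 CPM, a ratio of 0.611 (0.541 to 0.688). Edge spots of the 2 sections were thus close to each other, with a rIL7 over control ratio of 0.903 (0.775 to 1.05), whereas the interior was 2.29-fold higher in the rIL7 tumor (2.13 to 2.46). The interior was above the edge in all 4 rIL7 quadrants, and the edge above the interior in 3 of 4 control quadrants, the upper right being level at 62.7 CPM in both zones. The control level went from 88.8 CPM in the outermost step to 40 CPM at 13 or more steps, and the rIL7 level from 67.8 to 164.2 CPM.

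The rIL7 interior was also the richer zone for Mmp12. In the control section Mmp12 was at 45.4 CPM in edge spots and 38.5 CPM in interior spots, a ratio of 1.18 (1.01 to 1.38). The control edge was clearly above the interior in the upper left quadrant (55.4 against 32.3 CPM), nearer to it in the lower quadrants (21.4 against 21.1 CPM and 44 against 38.4 CPM), and below it in the upper right (48.7 against 63.5 CPM). The rIL7 section held 91.5 CPM in edge spots and 153 CPM in interior spots, a ratio of 0.598 (0.535 to 0.667), and the level went from 68.4 CPM in the outermost step to 228 CPM at 13 or more steps. This did not hold all around the tumor. In the lower left quadrant of the rIL7 section the edge had 172.3 CPM and the interior 155 CPM, while in the other quadrants the edge was lower, down to 31.1 CPM in the upper right. Between sections the ratio was 2.02 (1.69 to 2.41) at the edge and 3.98 (3.67 to 4.32) in the interior.

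Mmp3 was lower at the edge of both sections. The control section had 193.9 CPM in edge spots and 228.1 CPM in interior spots (ratio 0.850, 0.789 to 0.915), and the rIL7 section 235.5 and 437.9 CPM (ratio 0.538, 0.502 to 0.575). From the outermost step to 13 or more steps the level went from 198.6 to 287.7 CPM in the control tumor and from 251.4 to 540.9 CPM in the rIL7 tumor. All 4 rIL7 quadrants had the interior above the edge, and 3 of 4 control quadrants did. At the edge the sections were nearer to each other (ratio 1.21, 1.11 to 1.33) than in the interior (1.92, 1.85 to 1.99). Hypoxia genes were also higher toward the center of the rIL7 section, at 2954 CPM in the outermost step and 4205 CPM at 13 or more steps against 3232 and 3699 CPM in the control tumor, and neutrophil genes went from 214.4 to 347.7 CPM in the rIL7 and from 104.4 to 305.2 CPM in the control section; the part of either in the values of Mmp12, Mmp13 and Mmp3 was not tested.

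Mmp9 and Ctsk differed between sections in both zones. Mmp9 was at 59.9 CPM in edge spots and 43.7 CPM in interior spots of the control section (ratio 1.37, 1.19 to 1.58), and at 152.4 and 130.3 CPM in the rIL7 tumor (ratio 1.17, 1.07 to 1.28). The edge was higher in all 4 quadrants of both sections. Ctsk had 34 edge UMIs in the control (7.61 CPM against 9.74 CPM in the interior) and 133 in the rIL7 tumor (33.9 against 35.5 CPM), and both ratios of edge over interior, 0.781 (0.525 to 1.13) and 0.955 (0.788 to 1.15), had intervals that include 1 and changed sides with the width of the edge. Between sections Ctsk was higher by 4.46-fold (3.04 to 6.70) among edge spots and by 3.65-fold (3.10 to 4.32) among interior spots.

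Of the inhibitors, Timp1 and Timp2 had nearly the same small edge ratio in both sections, 1.05 and 1.05 for Timp1 and 0.951 and 0.95 for Timp2. For Timp1 in the rIL7 tumor this was made of opposite differences, with the edge above the interior on the left (775.6 against 647 CPM in the upper and 802.7 against 531.7 CPM in the lower quadrant) and below it on the right (437.5 against 603.8 CPM and 320.3 against 481.4 CPM). Timp3 was lower at the edge in all 4 control quadrants, at 44.3 CPM against 57.1 CPM in the interior (ratio 0.776, 0.663 to 0.904). In the rIL7 section its edge had 105.3 CPM and the interior 88.1 CPM (ratio 1.20, 1.07 to 1.33), but the edge was above the interior in only 1 of 4 quadrants. That was the lower left, with 178.7 CPM in edge spots and 90.4 CPM in interior spots, the same quadrant in which edge Mmp12 was highest.

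Comparing the sections by the ratio of their edge ratios, 2 genes were at least 1.5-fold higher in the rIL7 tumor (Mmp2 2.35 and Timp3 1.54), as were 7.27% of all genes, and 3 were at least 1.5-fold lower (Mmp12 0.506, Mmp13 0.395 and Mmp3 0.633), as were 3.94%. The metalloproteinase to TIMP ratio accordingly differed by zone. It was 0.513 at the edge and 0.472 in the interior of the control section, and 0.637 and 0.882 in the rIL7 tumor. The control edge also had keratinocyte genes at 120.8 CPM against 41.2 CPM in its interior, and the rIL7 edge had 30.1 against 39.2 CPM, so the 2 edges were not the same tissue in this respect. Nor were the interiors, with skeletal muscle genes at 61.3 CPM in the control tumor and 11.5 CPM in the rIL7 tumor. The part of these tissues in the ratios by zone was not tested.

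**Figure D3:**
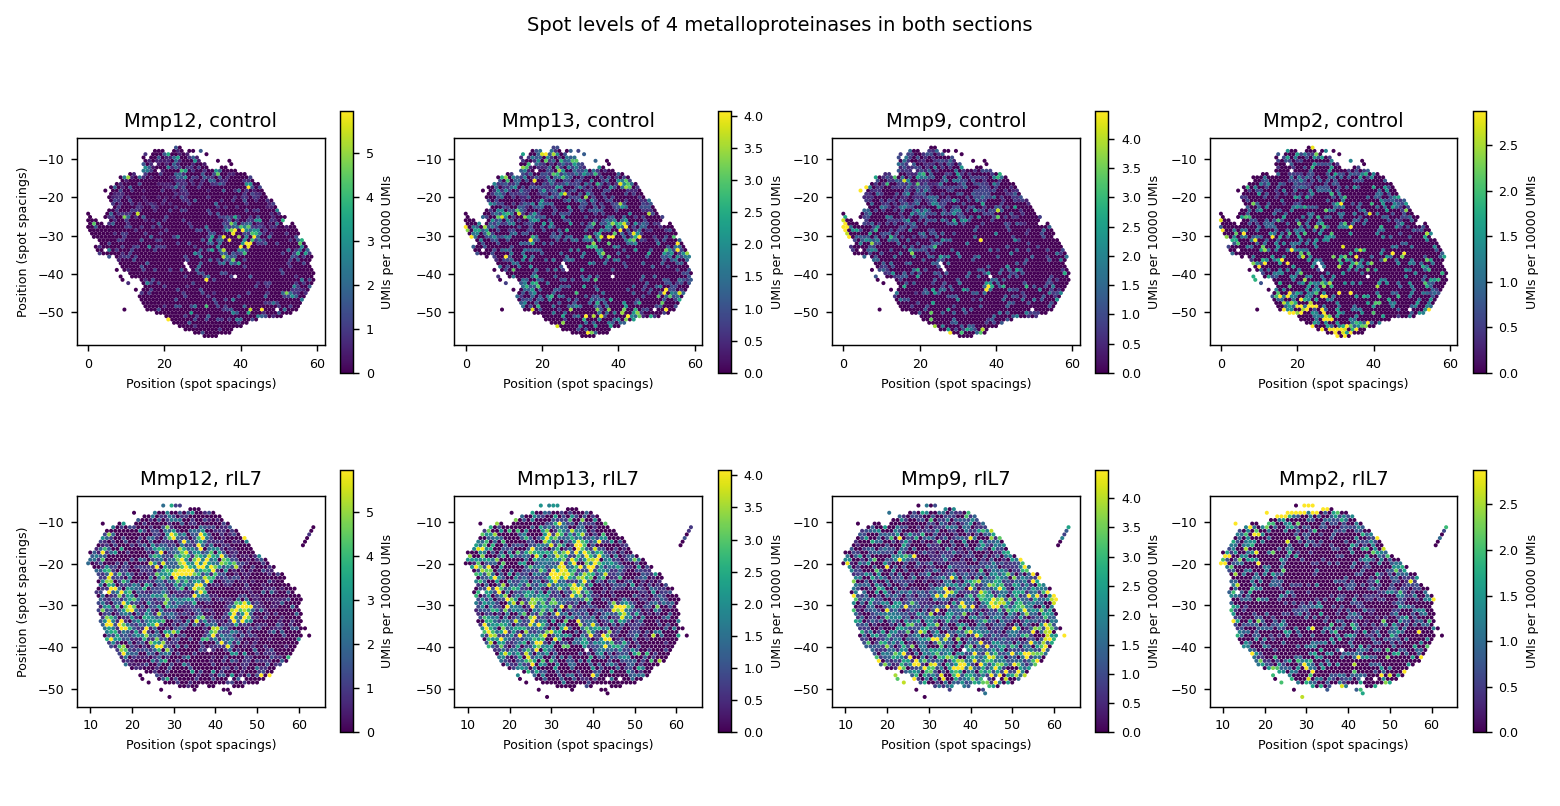
Position of each spot (in spot spacings) colored by its UMIs per 10000 UMIs of the spot for Mmp12, Mmp13, Mmp9 and Mmp2, with the control section in the upper row and the rIL7 section in the lower row; each gene has 1 color scale for both sections. Mmp12 and Mmp13 formed patches inside the rIL7 section, Mmp9 was spread over it, and Mmp2 was brightest along parts of its upper margin.

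The genes also differed in how patchy they were. Moran's I, which is near 0 when neighboring spots are unrelated and approaches 1 when they are alike, was 0.157 in the control tumor and 0.331 in the rIL7 tumor for Mmp12, 0.199 and 0.302 for Mmp3, and 0.139 and 0.214 for Timp1. It was 0.0911 and 0.182 for Mmp13, and at or below 0.103 in both sections for Mmp9, Mmp2, Mmp14, Ctsk, Timp2 and Timp3. These values were taken after each spot was thinned to 5900 UMIs (2002 control and 1869 rIL7 spots were deep enough), so depth was equal. Level still differed between the sections, and its part in this measure was not tested. In the thinned spots Mmp12 was found in 17.2% of control and 41.4% of rIL7 spots. The shares without thinning were 26.2% and 59.3%. Ctsk was found in 4.90% and 18.03% of thinned spots (8.47% and 31.2% without thinning), and Timp1 in 93.1% and 95.1%.

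Across thinned spots most pairs of these genes had a rho near 0. Of the 45 pairs, 1 reached a Spearman's rho of 0.1 in the control section, Mmp12 with Mmp13 at 0.125. In the rIL7 tumor 4 pairs did, namely Mmp12 with Mmp13 (0.266), Mmp12 with Timp1 (0.151), Mmp9 with Ctsk (0.118) and Mmp13 with Timp1 (0.105), and 3 pairs were below zero by as much, namely Mmp12 with Mmp9 (-0.116), Mmp9 with Timp1 (-0.107) and Mmp13 with Mmp9 (-0.105). Redrawing the thinning kept Mmp12 with Mmp13 between 0.244 and 0.292 in the rIL7 tumor. The other positive pairs and the control pair (0.079 to 0.155) went under 0.1 in some redraws. The 3 negative pairs were no more stable and, in the order above, weakened to -0.066, -0.062 and -0.015. The median over pairs was -0.00465 and 0.0144. All spots of a section share 1 library and neighbors are not independent, the counts are sparse, and no p is given. As a description, the members did not form 1 block in either section.

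**Figure D4:**
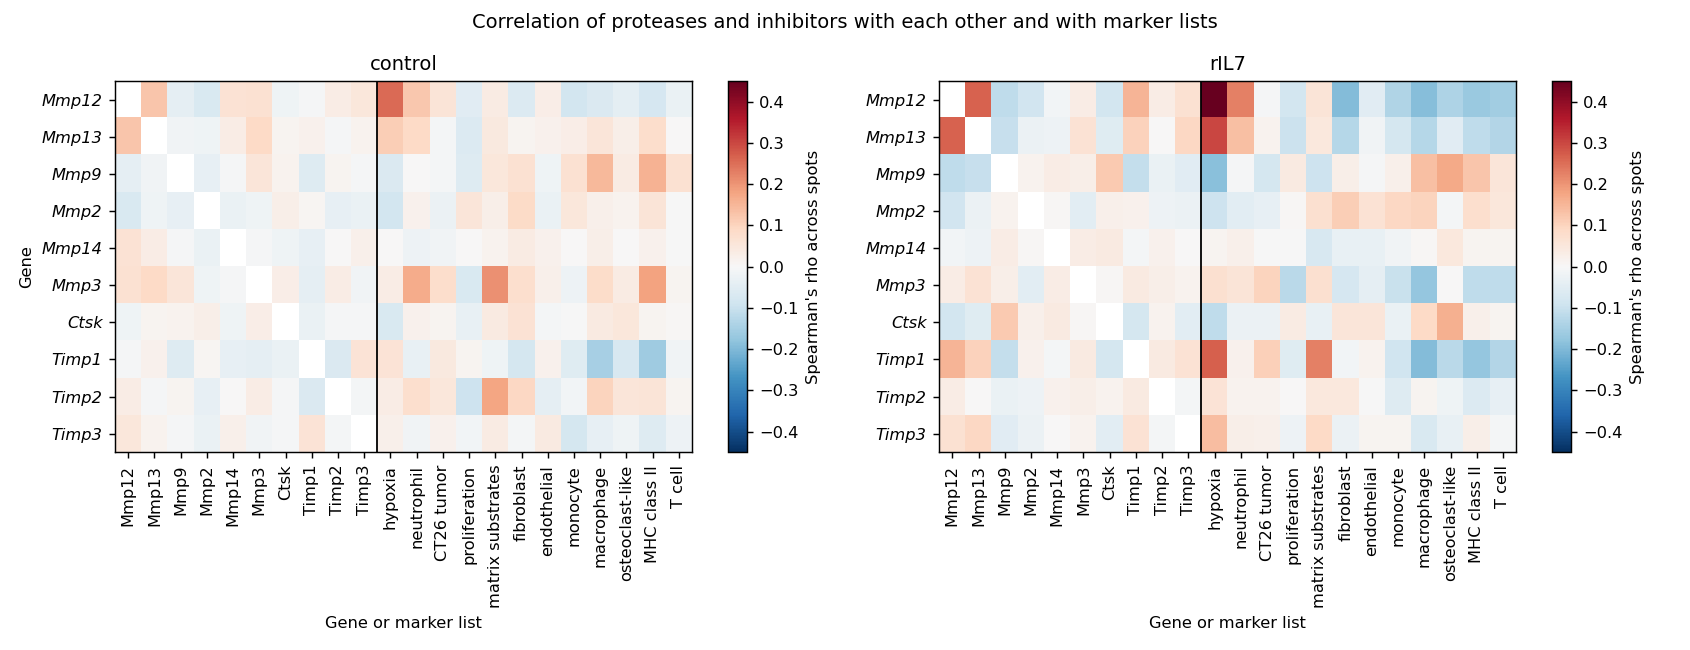
Spearman's rho across spots thinned to 5900 UMIs, in the control (left) and rIL7 section (right), of each gene with the other genes and with summed marker lists. The strongest cell in each panel among marker lists was Mmp12 with the hypoxia list, at 0.256 and 0.462.

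The hypoxia list, made of genes such as Car9, Pgk1 and Ldha that respond to low oxygen, ran closest to Mmp12, with a rho of 0.256 in the control tumor and 0.462 in the rIL7 tumor. Mmp13 had 0.112 and 0.300 and Timp1 0.063 and 0.268 with this list, while Mmp9 had -0.066 and -0.186 and Mmp3 0.034 and 0.070. Over redraws of the thinning the Mmp12 values ran from 0.201 to 0.256 and from 0.417 to 0.4765. Those of Mmp9 ran from -0.067 to 0.012 in the control tumor and from -0.186 to -0.124 in the rIL7 tumor. In the control tumor Mmp3 ran from -0.002 to 0.037 and Timp1 from 0.005 to 0.065. The control signs of Mmp9 and Mmp3 were thus not settled. In the 10% of spots richest in hypoxia genes (222 control and 195 rIL7 spots), Mmp12 was at 166.6 CPM against 28.4 CPM in all other control spots, a ratio of 5.87 (5.10 to 6.74). The rIL7 values were 436.8 and 105.4 CPM, a ratio of 4.14 (3.87 to 4.44). Mmp13 was 2.33-fold (2.02 to 2.67) and 2.53-fold (2.33 to 2.75) higher in those spots. For comparison, 1.01% and 1.22% of all genes at 5 CPM or more were at least 2-fold higher there. Mmp3 was at 261.2 against 217.9 CPM in such spots of the control tumor (ratio 1.20, 1.09 to 1.32) and at 370.1 against 411.7 CPM in those of the rIL7 tumor (0.899, 0.843 to 0.958). The same spots were lower in Mmp9 (ratios 0.756 and 0.666), Mmp2 (0.689 and 0.616) and Ctsk (0.487 and 0.574), and their median depth was 8065 UMIs against 9769 in the control tumor and 14386 against 12754 in the rIL7 tumor. The list itself summed to 3184 CPM in the control tumor and 3497 CPM in the rIL7 tumor, with 1 of its 10 genes, Ndrg1, past 1.5-fold among the 8 at 5 CPM or more.

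By the same measure Mmp12 stood in the spots richest in neutrophil genes at 85.4 against 35.6 CPM in the control tumor and 339.8 against 119.9 CPM in the rIL7 tumor, ratios of 2.40 (2.01 to 2.84) and 2.83 (2.63 to 3.06). A share of all genes is not at hand for these spots. Mmp13 was also higher in them, with ratios of 1.49 (1.26 to 1.75) and 1.845 (1.68 to 2.02). Mmp3 was higher in the control tumor only, at 1.59 (1.46 to 1.73) against 1.04 (0.9785 to 1.11) in the rIL7 tumor. Neutrophil genes summed to 159.1 CPM (quadrants 77.2 to 302.4) in the control tumor and 265.3 CPM (182.2 to 370.7) in the rIL7 tumor, with Ngp at 0 UMIs in both. S100a8 and S100a9 gave 712 and 1977 of the 3652 control UMIs and 1562 and 4207 of the 6825 rIL7 UMIs, and Il1r2 went the other way (ratio 0.733, 0.633 to 0.848). In macrophage-rich spots the Mmp12 ratios were 0.858 (0.698 to 1.05) and 0.645 (0.556 to 0.745). Of these spots 27.0% lay at the edge in the control tumor and 78.97% in the rIL7 tumor, and the part of position in this ratio was not tested.

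Mmp9 was higher in macrophage-rich spots of both sections, at 73.3 against 43 CPM in the control (ratio 1.71, 1.47 to 1.97) and 186.5 against 129 CPM in the rIL7 tumor (1.45, 1.30 to 1.61). Of all genes, 2.98% in the control tumor and 10.4% in the rIL7 tumor were at least 1.5-fold higher in macrophage-rich spots, a limit that the rIL7 ratio of Mmp9 did not reach. The excess was not particular to these spots. In spots rich in MHC class II genes the Mmp9 ratios were 1.69 (1.435 to 1.97) and 1.45 (1.30 to 1.61). With T cell genes they were 1.49 (1.23 to 1.78) and 1.15 (1.02 to 1.29). In neutrophil-rich spots they were 0.802 (0.625 to 1.02) and 1.09 (0.976 to 1.21), with intervals that include 1. Ctsk was higher in macrophage-rich spots too, by 1.79-fold (1.28 to 2.48) in the control tumor and 1.53-fold (1.24 to 1.87) in the rIL7 tumor. Mmp9 was also higher in spots rich in the osteoclast-like list (Acp5, Calcr, Ocstamp, Dcstamp, Atp6v0d2 and Oscar), by 1.60-fold (1.34 to 1.90) and 2.23-fold (2.05 to 2.44). Ctsk was at 22.4 against 8 CPM in such spots of the control section, a ratio of 2.80 (1.99 to 3.87), and at 98.6 against 29.5 CPM in the rIL7 tumor, a ratio of 3.34 (2.87 to 3.88). Of all genes, 1.61% in the control tumor and 2.01% in the rIL7 tumor were 1.5-fold higher in those spots. The list summed to 71 CPM (quadrants 47.8 to 94.3) in the control tumor and 119.6 CPM (67.5 to 172.7) in the rIL7 tumor, mostly from Acp5 with 1306 and 2622 UMIs. Ocstamp, the next most counted gene of the list, went the other way with 282 and 225 UMIs (ratio 0.712, 0.595 to 0.851). Dcstamp, a cell fusion receptor, had 3 and 38 UMIs, and Atp6v0d2, a proton pump subunit, 27 and 171, and neither reached 5 CPM. Calcr, the calcitonin receptor gene, had 0 and 1. The part of these genes in the section difference of Mmp9 and Ctsk was not tested.

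Mmp2 was higher in fibroblast-rich spots of both sections. In these it was at 58 against 41.7 CPM in the control (ratio 1.39, 1.15 to 1.67) and at 141.5 against 35.2 CPM in the rIL7 tumor (4.02, 3.53 to 4.57). Of all genes, 1.25% in the control tumor and 5.81% in the rIL7 tumor were 1.5-fold higher in such spots. Of the fibroblast-rich spots 23.9% lay at the edge in the control tumor and 70.3% in the rIL7 tumor, so the edge and the list move together here. Other lists gave the same contrast for Mmp2, with ratios of 1.07 (0.856 to 1.32) in the control tumor and 2.79 (2.40 to 3.24) in the rIL7 tumor for endothelial-rich spots, 1.001 (0.832 to 1.20) and 2.42 (2.07 to 2.82) for macrophage-rich spots, and 1.01 (0.807 to 1.26) and 2 (1.69 to 2.36) for spots rich in T cell genes. For the endothelial and T cell lists a share of all genes is not at hand. The rho of Mmp2 with fibroblast genes was 0.087 in the control tumor, with redraws of the thinning from 0.058 to 0.113. In the rIL7 tumor it was 0.110, the lowest of redraws that reached 0.209. By quadrant the list summed to between 1619 and 2306 CPM in the control tumor and to between 2093 and 2473 CPM in the rIL7 tumor. Mmp3, also a fibroblast product, was not higher in fibroblast-rich spots of the rIL7 section (0.647, 0.596 to 0.701) and was slightly higher in those of the control (1.13, 1.04 to 1.23). Its rho with MHC class II genes was 0.181 in the control tumor and -0.114 in the rIL7 tumor.

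**Figure D5:**
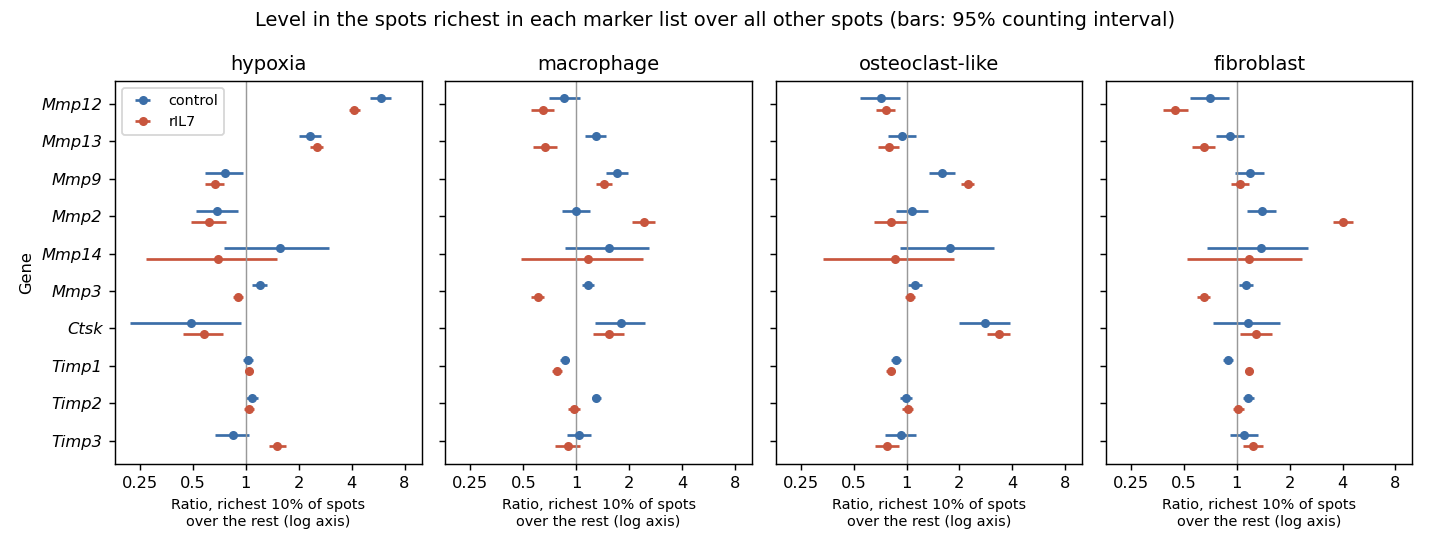
Ratio of each gene's level in the 10% of spots richest in a marker list over its level in all other spots (log axis), for 4 lists, in the control (blue) and rIL7 section (red); bars are 95% counting intervals and the gray line marks a ratio of 1. Mmp12 and Mmp13 lie to the right for hypoxia genes, Mmp9 and Ctsk for macrophage genes, and Ctsk and Mmp9 for osteoclast-like genes. Mmp2 does for fibroblast genes in both sections, further in the rIL7 tumor. In the rIL7 tumor alone Mmp2 also does for macrophage genes, and Timp3 for hypoxia genes. Other points to the right are not listed, such as Timp2 for macrophage genes in the control tumor.

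Over 7198 genes with at least 500 UMIs in each section, those most like Mmp12 across spots were Pgk1 (rho 0.212 in the control tumor and 0.380 in the rIL7 tumor), Ndrg1 (0.209 and 0.375) and Gapdh (0.192 and 0.379). Pgk1 and Gapdh encode glycolytic enzymes, and Pgk1 and Ndrg1 are on the hypoxia list. For Mmp3 it was Spp1 (0.206 and 0.195), the gene for the matrix protein osteopontin. Timp1 was most like Crabp1 (0.179 and 0.219), Mgp (0.173 and 0.220) and Mt1 (0.171 and 0.238), which encode a retinoic acid binding protein, matrix Gla protein and a metallothionein. No gene reached a rho of 0.15 in both sections with any of the other 7 members.

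In the GRCm38 genome, for which RefSeq positions matched all 10 genes, Mmp13 (chromosome 9, 7272514 to 7283333), Mmp12 (7344397 to 7360461) and Mmp3 (7445822 to 7455975) lie in 1 cluster of metalloproteinase genes and together span 183.5 kb. The neighbor Mmp10, a stromelysin, was at 25.3 CPM in the control tumor and 30.3 CPM in the rIL7 tumor, a ratio of 1.20 (1.08 to 1.34) that stayed under those of its 3 neighbors. Mmp8, the neutrophil collagenase, had 27 and 34 UMIs, and Mmp27 had 25 and 37. Mmp1b had 0 and 1 UMIs, and Mmp20 and Mmp7 had 0 in both sections, where the exact Poisson limit for a count of 0 is 0.161 CPM in the control tumor and 0.143 CPM in the rIL7 tumor. A higher level in the rIL7 tumor was thus not shared by every expressed gene of the cluster to the same degree. The other members lie apart, Mmp9 on chromosome 2 (164940326 to 164955850), Mmp2 on chromosome 8 (92827290 to 92853421), Mmp14 on chromosome 14 (54431598 to 54442456), Ctsk on chromosome 3 (95499210 to 95509387), Timp1 on chromosome X (20870166 to 20874737), Timp2 on chromosome 11 (118301061 to 118355411) and Timp3 on chromosome 10 (86300412 to 86349505).

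Other genes of matrix proteolysis were counted by list, and the counts can be read beside the 3.26% of all genes that were at least 1.5-fold higher in the rIL7 tumor and the 2.20% that were lower. Of 17 other metalloproteinase genes 16 were among those counted and 5 reached 5 CPM, with 1 at least 1.5-fold higher in the rIL7 tumor and 0 lower. That 1 was Mmp25, a membrane-anchored enzyme of leukocytes, at 3.18 and 7.11 CPM (ratio 2.24, 1.70 to 2.98), which reached the limit only through its rIL7 level. Mmp19 was at 88.1 and 91.2 CPM and Mmp11, a stromal enzyme, at 42.9 and 39.7 CPM. Of 13 ADAM and ADAMTS genes 11 reached 5 CPM, 2 were higher and 0 lower. Adam8, a leukocyte sheddase, was at 113.8 and 175.5 CPM (ratio 1.54, 1.47 to 1.62), and Adam19 at 4.62 and 7.15 CPM (1.55, 1.21 to 1.99), which like Mmp25 reached the limit only through its rIL7 level.

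Plasmin can activate several metalloproteinase precursors, and of 6 genes of plasminogen activation 4 reached 5 CPM, 1 was higher and 0 were lower. Plau, the urokinase gene, was at 36.1 and 56 CPM (ratio 1.55, 1.42 to 1.69), and its quadrants did not overlap between sections. The other cathepsin list, which also holds the cathepsin inhibitor gene Cst3, had 9 of 10 genes at 5 CPM and none past 1.5-fold in either direction. Ctsl was at 2958 and 2589 CPM and Ctsb at 672.5 and 795.6 CPM, against the 3.83-fold of Ctsk. Among 5 other inhibitors and activators 2 reached 5 CPM, Sparc and the metalloproteinase inducer gene Bsg, and neither was past 1.5-fold. The remaining inhibitor of the TIMP family, Timp4, had 1 UMI in the control tumor and 0 in the rIL7 tumor.

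All 12 genes for matrix substrates reached 5 CPM, and 2 were at least 1.5-fold higher in the rIL7 tumor and 0 lower. Eln, the gene for elastin, the substrate of Mmp12, was at 3.62 and 9.41 CPM (ratio 2.60, 2.02 to 3.38) and reached the limit through its rIL7 level. Lama4, a laminin chain of vessel basement membranes, was at 21.2 and 32.8 CPM (1.55, 1.38 to 1.73). Fn1, the fibronectin gene, was at 610.5 and 886.8 CPM (1.45, 1.42 to 1.48), with rIL7 quadrants above all control quadrants. Fibrillar collagen genes differed less, with Col1a1 at 202.4 and 235.3 CPM and Col1a2 at 856 and 842.5 CPM.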

How the data were processed

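Frozen tumor sections, 1 per group, were profiled with Visium. The authors processed barcodes with Space Ranger 1.1.0 against mouse mm10 (GRCm38), and they deposited the raw count of UMIs of each gene in each spot. Other deposited items, the spot barcodes, gene identifiers and array positions, were used as given by the authors, and image files were not used here. Following the study's filter, spots with under 10% mitochondrial UMIs and more than 200 genes were kept, which removed 2 control spots and 1 rIL7 spot. The sections shared 1702 spot barcodes, all at the same array position, as the slide design gives, and 0 had the same counts.

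UMIs were summed over spots and divided by section totals. A gene counted as higher or lower at 1.5-fold with a mean of at least 5 CPM. No test was run. Spearman's rho used spots thinned to 5900 UMIs, with 20 redraws. The genes named were all members, those of the proteolysis lists, and up to 3 genes per member whose lower rho of the 2 sections was at least 0.15. Members and lists were chosen with earlier results of these data known. Alternatives were other spot filters, scalings (TMM in edgeR 4.0.16, median of ratios in DESeq2 1.42.0), edge widths, equal spot weights and thinning depths. Code ran in Python 3.11.15 and R 4.3.3 and was tested on simulated data.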

Additional observations from a re-analysis of the deposited data

Results flagged for a closer look

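For 3 genes the edge was above the interior in one section and below it in the other, with counting intervals on opposite sides of 1. Mmp12 had an edge over interior ratio of 1.18 in the control tumor and 0.598 in the rIL7 tumor, and the control excess was largest in 1 of 4 quadrants and reversed in another. For Mmp13 the ratios were 1.55 and 0.611. Timp3 went the other way, with 0.776 in the control tumor and 1.20 in the rIL7 tumor, and the rIL7 value came from 1 of 4 quadrants. With 1 section per group the difference between sections was not tested.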

How the results depend on the processing

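Scaling by TMM or by the median of ratios moved log2 ratios between sections by 0.01, and under these, with no spot filter, with over 1000 genes per spot, and with totals without mitochondrial, ribosomal protein and hemoglobin genes, all 10 ratios stayed within their counting intervals. At 2-fold in place of 1.5-fold, 3 members were past the limit. With interior spots only, 5 of the 10 section ratios moved beyond their intervals, and Mmp2 went to a log2 ratio of -0.33. With equal spot weights 3 of the 10 section ratios moved beyond their intervals. Of the edge ratios whose interval excluded 1, none changed direction with an edge of 1 step, equal spot weights or without spots at the array frame, and with an edge of 4 steps Timp1 in the rIL7 tumor did, at a log2 ratio of -0.083. Sizes were less stable. Of all 20 edge ratios, 8 moved beyond their intervals with an edge of 1 step and 2 with equal spot weights. Ctsk, whose intervals include 1, went to log2 ratios of 0.009 in the control tumor and 0.35 in the rIL7 tumor with an edge of 1 step. The median rho over pairs was 0.0188 in the control tumor and 0.0203 in the rIL7 tumor with no thinning, and -0.0061 in the control with interior spots only. Of 24 rho values followed, 21 moved with no thinning, 14 at 3000 UMIs and 9 with interior spots only, and none reversed. Thinning to 3000 UMIs lowered rho of Mmp12 with hypoxia genes to 0.1995 and 0.304, and no thinning raised it to 0.269 and 0.549. Mmp9 with macrophage genes went to 0.0507 in the control tumor at 3000 UMIs, and Mmp2 with fibroblast genes to 0.0477 in the rIL7 interior. No paired analysis was possible because each group has 1 section, and for the same reason no section could be left out. Counting intervals do not cover differences between animals, sections or slides.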

Other observations

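Serpinb2, the gene for a plasminogen activator inhibitor of myeloid cells, had 3 UMIs in the control tumor and 46 UMIs in the rIL7 tumor, a ratio of 13.7 with a counting interval of 4.40 to 68.8. Its rIL7 level was uneven, with quadrants from 0.439 to 5.81 CPM and 8.155 CPM at the edge against 0.601 CPM in the interior. Serpine2, which encodes a protease inhibitor also acting on plasminogen activators, went the other way with 148 and 67 UMIs, a ratio of 0.404 (0.298 to 0.542). A2m, the gene for a broad protease inhibitor of plasma, had 0 and 9 UMIs. These genes were under 5 CPM on average and were chosen after their values were seen.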
